A study of Mus musculus with 12 samples.

Results

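Upon ligand stimulation, shSrsf3 cells were compared with scramble cells to ask which genes depend on *Srsf3* while PDGFRα signaling is active. The comparison holds 6 of the 12 samples of the series, 3 scramble +PDGF-AA replicates and 3 shSrsf3 +PDGF-AA replicates, and it was made over 15037 genes that passed a filter for low counts of the 51490 genes in the table. Both cell lines are iMEPM cells, an immortalized line of mouse embryonic palatal mesenchyme that was derived from a male *Cdkn2a*-/- embryo. A scramble shRNA or an shRNA against the 3’ untranslated region of *Srsf3* (shSrsf3) was integrated with a lentivirus, and for 1 hr before RNA isolation all 6 samples were given PDGF-AA at 10 ng/mL. In the paper's protocol for inducing PDGFRα signaling, cells were starved of serum before ligand was added, a step that its RNA-seq methods do not restate. The other 6 samples are the same lines without ligand. Each shRNA is carried by 1 selected and sorted cell population, so that an effect of the shRNA and a difference between the populations cannot be told apart, and no source used here says that the replicates of a line came from separately transduced cells. The paper describes the 3 samples of each treatment as independent biological replicates. The p-values therefore measure the spread between replicates of a line, and not that between separately transduced populations.

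SR proteins such as Srsf3 bind exons and help the spliceosome choose splice sites, and they also take part in RNA export, 3’ end processing, and translation. PDGFRα is a receptor tyrosine kinase of the craniofacial mesenchyme, and its ligand PDGF-AA activates PI3K/Akt and MAPK signaling. The palatal mesenchyme lays down collagen-rich matrix, responds to Wnt, Fgf, BMP, and Hedgehog signals, and gives rise to bone and connective tissue of the secondary palate.

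The 6 libraries were not of equal depth. Total counts were between 57313132 and 65707963 in the scramble samples and between 30958966 and 37334733 in the shSrsf3 samples, so that depth moved with the shRNA. Levels of single genes are given in CPM, counts divided by a TMM-scaled library total in units of 1e+06. Sums over markers were taken with the library total without TMM scaling. Of the 12 palatal mesenchyme markers, 12 were tested, and their summed level was 35232 to 36065 CPM in scramble samples and 31782 to 34021 CPM in shSrsf3 samples. *Osr2* and *Msx1*, transcription factors of the palate, averaged 3.21 and 1.14 CPM, and *Lum*, a proteoglycan of connective tissue, averaged 0.123 CPM. Endothelial markers summed to 30.5 to 34.3 CPM in scramble samples but 19.3 to 22.4 CPM in shSrsf3 samples, nearly all of it *Tek*, and *Tie1* had no count. The 10 epithelial markers summed to 10.3 CPM or less and the 6 immune markers to 2.27 CPM or less in any sample, with *Esrp1*, *Adgre1*, and *Cd3e* at 0. The 6 smooth muscle and pericyte markers summed to 8064 to 8266 CPM in scramble and 7403 to 7435 CPM in shSrsf3 samples, and the 6 neuron and glia markers to 264 to 278 CPM and 234 to 249 CPM, with *Sox10* at 0. Skeletal muscle markers reached 2.18 CPM and adipocyte markers 11.3 CPM at most. Transcripts of the mitochondrial genome took 2.36% to 3.005% of counts in scramble and 3.02% to 3.44% in shSrsf3 samples. The part of these differences in the results was not tested.

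*Srsf3* (ENSMUSG00000071172.15, chromosome 17, 29251321 to 29262347 of GRCm39) was examined first. *Srsf3* had 221, 215, and 231 CPM in the scramble samples and 164, 161, and 169.6 CPM in the shSrsf3 samples. Each shSrsf3 sample was below each scramble sample, and the mean level in shSrsf3 samples was 74.2% of that in scramble samples (log2 fold change -0.43, standard error 0.0381, adjusted p = 9.54e-07 in the quasi-likelihood test of edgeR). A two-sided exact permutation test gave p = 0.1, the smallest value that 3 samples against 3 allow. Of the 11 SR protein genes tested, *Srsf4* also passed the test, with a log2 fold change of 0.13. The others ranged from -0.12 for *Srsf9* to 0.03 for *Srsf12* on the same scale. *Srsf5* was measured at 458, 521, and 491 CPM in the scramble samples and 437, 466, and 455 CPM in the shSrsf3 samples, so that the groups overlapped.

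DE genes were those that changed at least 2-fold and had an adjusted p no higher than 0.05. By this rule 815 of 15037 genes (5.42%) were DE, 429 (2.85%) of them higher and 386 (2.57%) lower in shSrsf3 samples. For 794 of the 815 genes the samples of the 2 lines did not overlap, while 52.6% of all tested genes showed no overlap. Small differences were far more common than large ones. At the adjusted p alone, 3050 genes (20.3%) were higher and 3119 (20.7%) were lower, and 5354 of these 6169 genes (86.8%) changed by less than 2-fold. Changes over 4-fold were seen for 94 higher and 89 lower genes, and changes over 16-fold for 13 and 10 genes. The DE genes lay among the low counts. The genes called higher had a median level of 0.413 CPM in scramble samples and 1.23 CPM in the shSrsf3 line, and those called lower had 1.61 and 0.530 CPM, against a median of 17.4 CPM over all tested genes in scramble samples. Of 927 lncRNA genes, 8.31% were DE, and of 12888 protein-coding genes, 5.35% were DE.

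**Figure D1:**
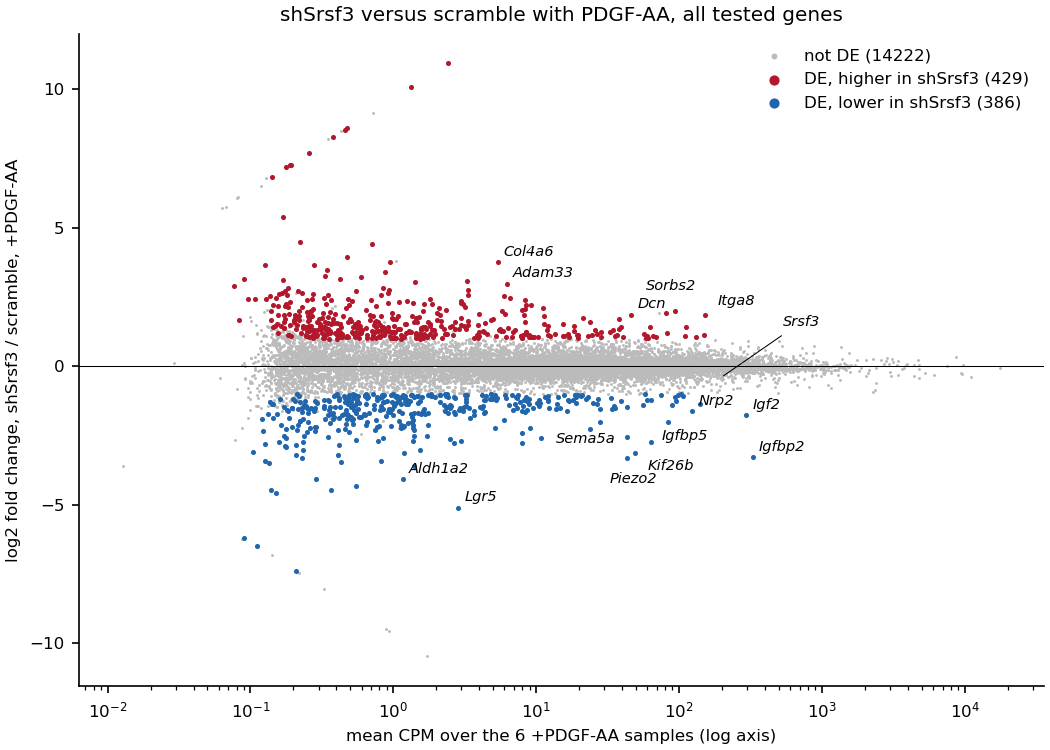
Mean level of each tested gene over the 6 +PDGF-AA samples in CPM (x axis, log scale) against its log2 fold change between shSrsf3 and scramble samples (y axis). Each point is a gene, with 429 DE genes that were higher in red, 386 that were lower in blue, and the others in gray. *Igfbp2* stands out among highly counted genes, *Srsf3* lies close to 0 at -0.43, and the points beyond 6 on either side are genes with no count in the +PDGF-AA samples of one line.

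A group of 13 DE genes had no count in any +PDGF-AA sample of one line, 10 of them in scramble and 3 in shSrsf3 samples. Of the 13, 10 were pseudogenes or other genes that share 96.8% to 100% of their 31-base sequences with another gene, so that their reads could have been assigned elsewhere. *Fgf9*, a growth factor, had 28, 20, and 28 counts in the scramble samples and none in the shSrsf3 samples. Taking 3 counts in a library as the smallest detectable level, it was at least 4.65-fold lower. *Thbs4*, a matrix thrombospondin, had 12, 9, and 12 counts in the scramble samples and was at least 2.02-fold lower on the same basis.

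The 24 genes with the largest changes among well-counted DE genes were described next, 12 in each direction. The largest increase was in *Col4a6*, a chain of basement membrane collagen IV. *Col4a6* (ENSMUSG00000031273.17) lies on chromosome X from 139948399 to 140257072 of GRCm39. *Col4a6* was at 0.830, 0.620, and 0.742 CPM in the scramble samples and 9.62, 10, and 10.4 CPM in the shSrsf3 samples (log2 fold change 3.77, standard error 0.115, adjusted p = 4.58e-11). *Rab3b*, a GTPase of regulated secretion, and *Adam33*, a metalloprotease of the ADAM family, followed. *Rab3b* had 0.565, 0.797, and 0.711 CPM in the scramble samples and 4.97, 6.35, and 6.44 CPM in the shSrsf3 samples (log2 fold change 3.09, standard error 0.153, adjusted p = 3.72e-09). *Adam33* was measured at 1.56, 1.15, and 1.47 CPM in the scramble samples and 11.2, 11.2, and 10.9 CPM in the shSrsf3 samples (log2 fold change 2.99, standard error 0.118, adjusted p = 4.90e-10). In all 3 genes the lowest shSrsf3 sample was several times above the highest scramble sample. *Ldb2* encodes a cofactor of LIM-homeodomain factors, *Parvb* a focal adhesion adaptor that binds integrin-linked kinase, and *Hvcn1* a voltage-gated proton channel. *Ldb2* was at 0.963, 0.780, and 0.819 CPM in the scramble samples and 5.74, 6.07, and 5.76 CPM in the shSrsf3 samples (log2 fold change 2.77, standard error 0.141, adjusted p = 4.81e-09). *Parvb* had 0.864, 1.13, and 0.850 CPM in the scramble samples and 5.61, 5.45, and 6.02 CPM in the shSrsf3 samples (log2 fold change 2.59, standard error 0.134, adjusted p = 5.60e-09). *Hvcn1* was measured at 1.59, 1.81, and 1.82 CPM in the scramble samples and 10.1, 10.4, and 9.88 CPM in the shSrsf3 samples (log2 fold change 2.54, standard error 0.0829, adjusted p = 8.10e-11). The other 6 were *Sparcl1* (a matricellular protein related to SPARC), *Entpd1* (an ectonucleotidase), *Prss35* (a serine protease-like protein), *Bmerb1*, *Cadm4* (a cell adhesion molecule of the immunoglobulin family), and *Alkal1* (a ligand of the ALK and LTK receptors), with log2 fold changes of 2.47, 2.42, 2.41, 2.37, 2.30, and 2.29. A lack of overlap between the lines was a condition for these 12 genes.

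The largest decrease was in *Lgr5*, a receptor for R-spondins that strengthens Wnt signaling. *Lgr5* (ENSMUSG00000020140.16) lies on chromosome 10 from 115286216 to 115423685 of GRCm39. *Lgr5* was at 5.33, 6.20, and 5.12 CPM in the scramble samples and 0.160, 0.217, and 0.0966 CPM in the shSrsf3 samples (log2 fold change -5.11, standard error 0.197, adjusted p = 4.24e-10). *Aldh1a2*, which makes retinoic acid from retinal, had 2.36, 1.63, and 2.60 CPM in the scramble samples and 0.134, 0.124, and 0.129 CPM in the shSrsf3 samples (log2 fold change -4.07, standard error 0.319, adjusted p = 2.94e-07). Both genes were close to absent in shSrsf3 samples. *Piezo2*, a mechanically gated ion channel, and *Kif26b*, a kinesin family protein that is degraded upon Wnt5a-Ror signaling, were more highly counted. *Piezo2* was measured at 75.9, 81.1, and 77.1 CPM in the scramble samples and 7.88, 8.83, and 6.82 CPM in the shSrsf3 samples (log2 fold change -3.31, standard error 0.0747, adjusted p = 4.91e-12). *Kif26b* was at 88.5, 93.3, and 84.3 CPM in the scramble samples and 10.6, 11.2, and 8.30 CPM in the shSrsf3 samples (log2 fold change -3.14, standard error 0.0875, adjusted p = 2.04e-11). *Igfbp2* and *Igfbp5* encode secreted proteins that bind insulin-like growth factors. *Igfbp2* (ENSMUSG00000039323.20) lies on chromosome 1 from 72863606 to 72891634 of GRCm39. *Igfbp2* had 599, 596, and 593 CPM in the scramble samples and 59.9, 63.6, and 59.7 CPM in the shSrsf3 samples (log2 fold change -3.29, standard error 0.0418, adjusted p = 4.68e-15). *Igfbp5* was measured at 105, 121, and 106 CPM in the scramble samples and 16.97, 17.96, and 15.1 CPM in the shSrsf3 samples (log2 fold change -2.73, standard error 0.0683, adjusted p = 9.95e-12). The remaining 6 were *Cpxm2* (a carboxypeptidase-like secreted protein, -3.15), *Erg* (an ETS transcription factor, -3.01), *Adamts16* (a matrix protease, -2.79), *Plxnc1* (a semaphorin receptor, -2.77), *Pde9a* (a cGMP phosphodiesterase, -2.69), and *Cxcl14* (a chemokine, -2.61), with the log2 fold change of each in parentheses. These 12 too were chosen among genes whose lines did not overlap.

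**Figure D2:**
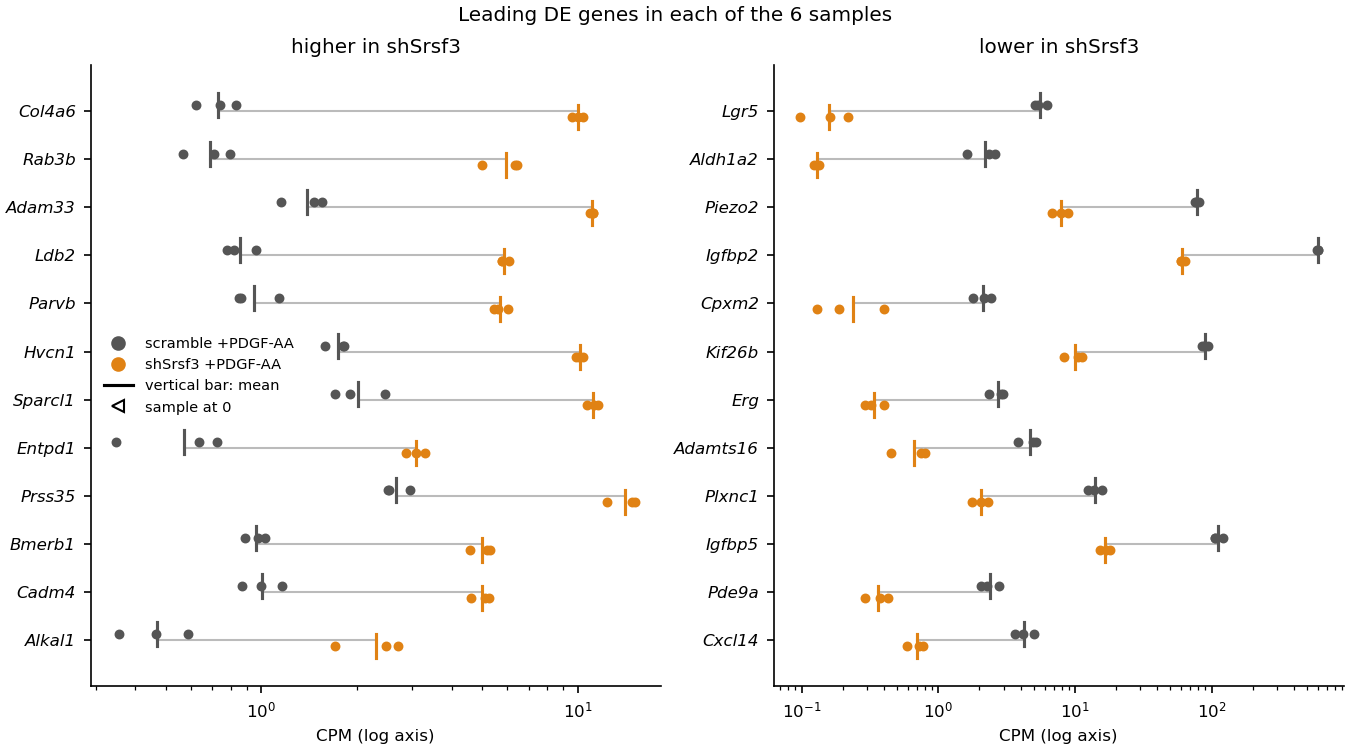
CPM (x axis, log scale) of the 12 leading higher genes (left) and 12 leading lower genes (right) in each of the 3 scramble +PDGF-AA samples (gray) and 3 shSrsf3 +PDGF-AA samples (orange), with a vertical bar at each mean. The genes were chosen so that the 2 colors do not overlap, and *Igfbp2* moves from 596 to 61.1 CPM.

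The 8 DE genes with the highest counts, a ranking that also reflects transcript length, included *Igfbp2* and 7 others. *Nrp2*, a coreceptor for class 3 semaphorins and VEGF, and *Rflnb*, a filamin-binding protein, fell. *Nrp2* was at 177, 206, and 179 CPM in the scramble samples and 62.6, 66.96, and 52.4 CPM in the shSrsf3 samples (log2 fold change -1.63, standard error 0.0766, adjusted p = 2.41e-09). *Rflnb* had 206, 208, and 193 CPM in the scramble samples and 73.7, 80.96, and 84.8 CPM in the shSrsf3 samples (log2 fold change -1.34, standard error 0.0600, adjusted p = 1.53e-09). *Itga8*, an integrin alpha subunit, *Col4a5*, the partner chain of *Col4a6*, *Emilin2*, an elastic fiber glycoprotein, and *Cspg4*, the proteoglycan NG2, rose. *Itga8* was measured at 67.1, 63.8, and 69.6 CPM in the scramble samples and 242, 240.5, and 236 CPM in the shSrsf3 samples (log2 fold change 1.84, standard error 0.0491, adjusted p = 1.58e-11). *Col4a5* was at 96.8, 87.9, and 96.3 CPM in the scramble samples and 203, 197, and 211 CPM in the shSrsf3 samples (log2 fold change 1.12, standard error 0.0478, adjusted p = 1.06e-09). *Emilin2* had 61.9, 59.1, and 62.4 CPM in the scramble samples and 161, 159, and 166 CPM in the shSrsf3 samples (log2 fold change 1.41, standard error 0.0397, adjusted p = 2.16e-11). All 3 rose in each shSrsf3 sample, and *Cspg4* went from a mean of 85.4 to 177 CPM (log2 fold change 1.05). *Igf2*, a fetal growth factor, fell. *Igf2* was measured at 420.5, 549, and 402 CPM in the scramble samples and 137, 144, and 127 CPM in the shSrsf3 samples (log2 fold change -1.75, standard error 0.119, adjusted p = 7.91e-08). Of its 31-base sequences, 57.2% also occur in transcripts of another annotated gene, so that part of its reads could be assigned elsewhere.

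Genes were then grouped into 27 lists by pathway or family. Interferon-stimulated genes had the highest share of DE members (22 of 55, 40%), ahead of cadherins and other protocadherins (8 of 29, 27.6%), the Wnt pathway (17 of 73, 23.3%), the retinoic acid pathway (5 of 22, 22.7%), and Hedgehog and Notch genes (5 of 23, 21.7%), all against 5.42% of all tested genes. Shares were near or below that value among actin, smooth muscle, and YAP target genes (3 of 60, 5.00%), SR and hnRNP splicing factors (2 of 55, 3.64%), cell cycle genes and p53 targets (2 of 67, 2.99%), ribosomal, mitochondrial, and histone transcripts (3 of 130, 2.31%), and PI3K, Akt, and endosome genes (1 of 62, 1.61%). Members of a list that are named below without being among the leading or highest-counted DE genes of that list were chosen after their values were seen. A value in parentheses after a gene name is its log2 fold change. The counts for each list below are to be read beside the shares over all tested genes. These were 2.85% called higher and 2.57% called lower, and 20.3% higher and 20.7% lower at the adjusted p alone.

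Interferon-stimulated genes encode antiviral enzymes, GTPases, transcription factors, and antigen presentation proteins, and many are switched on by the factor complex ISGF3, which binds the interferon-stimulated response element. Of 55 tested members 22 were called lower (40%, against 2.57% of all genes), and 0 were called higher by edgeR, DESeq2, or limma-voom, with 2 higher at an unadjusted p under 0.05. The median log2 fold change of the list was -0.77, against -0.01 over all genes. At the adjusted p alone 41 fell and 1 rose. By role, 13 of 26 antiviral genes, 4 of 9 GTPases, 2 of 7 factors, and 3 of 13 antigen presentation genes were called lower. The RefSeq promoter sequences of GRCm38.p6, which run from 250 bases before to 50 bases after each gene's start, were searched on both strands for GAAANNGAAA, the core of the response element. An entry was found for 41 of the 55 genes, and 23 of these (56.1%) held the core, against 3.99% of all 27025 genes with an entry. Among the 14 DE genes with an entry 8 held it, and among the 27 others 15 did. Shown here are the stretches upstream of the gene start in the 5 of these 8 genes with the largest changes, to show the element and its place, with the first match in capitals (as its reverse complement in *Ifit1* and *Trim30a*). These 5 genes were chosen after their values were seen.
*Oas1a*: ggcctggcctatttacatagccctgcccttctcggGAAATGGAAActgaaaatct
*Ifit1*: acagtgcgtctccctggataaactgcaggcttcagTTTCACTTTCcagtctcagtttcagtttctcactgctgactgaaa
*Trim30a*: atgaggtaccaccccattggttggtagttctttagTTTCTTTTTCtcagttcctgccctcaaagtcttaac
*Igtp*: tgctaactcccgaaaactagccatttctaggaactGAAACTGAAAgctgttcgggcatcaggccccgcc
*Isg15*: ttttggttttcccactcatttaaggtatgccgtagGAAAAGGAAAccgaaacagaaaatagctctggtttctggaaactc

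The stretches lie at chr5:120907526-120907580 (minus strand, *Oas1a*), chr19:34640750-34640829 (plus strand, *Ifit1*), chr7:104465194-104465264 (minus strand, *Trim30a*), chr11:58199487-58199555 (plus strand, *Igtp*), and chr4:156200852-156200931 (minus strand, *Isg15*) of GRCm38.p6. The match begins 20 bases before the start of *Oas1a*, 104 before *Ifit1*, 36 before *Trim30a*, 34 before *Igtp*, and 78 before *Isg15*. A match describes the letters alone. *Oas1a* encodes an enzyme that makes 2-5A and so activates RNase L, and *Oasl2* is a related protein. *Oas1a* was at 1.13, 1.01, and 0.726 CPM in the scramble samples and 0.160, 0.186, and 0.0966 CPM in the shSrsf3 samples (log2 fold change -2.66, standard error 0.312, adjusted p = 1.39e-05). *Oasl2* had 8.06, 12.2, and 7.90 CPM in the scramble samples and 2.11, 2.69, and 2.57 CPM in the shSrsf3 samples (log2 fold change -1.94, standard error 0.202, adjusted p = 4.64e-06). *Ifit1* recognizes RNA without a methylated cap, *Usp18* removes the ubiquitin-like protein ISG15, and *Parp14* is an ADP-ribosyltransferase. *Ifit1* was measured at 8.64, 12.9, and 9.18 CPM in the scramble samples and 3.37, 4.06, and 4.44 CPM in the shSrsf3 samples (log2 fold change -1.37, standard error 0.184, adjusted p = 4.60e-05). *Usp18* was at 2.39, 2.30, and 2.63 CPM in the scramble samples and 0.828, 1.05, and 0.515 CPM in the shSrsf3 samples (log2 fold change -1.60, standard error 0.240, adjusted p = 1.21e-04). *Parp14* had 4.98, 6.13, and 5.83 CPM in the scramble samples and 1.90, 1.49, and 1.64 CPM in the shSrsf3 samples (log2 fold change -1.75, standard error 0.141, adjusted p = 4.05e-07). *Isg15* itself and the GTPase gene *Igtp* had log2 fold changes of -1.07 and -1.09. The immunoproteasome genes *Psmb8* and *Psmb9* had log2 fold changes of -1.18 and -1.13, and the MHC class Ib gene *H2-T23* had -1.02. Without ligand, 12 of the 55 were DE and 11 of these were among the 22, and the median log2 fold change was -0.71. The interaction is the difference between the effect of the shRNA with and without ligand. It passed for 0 of the 55 by edgeR, with 4 at an unadjusted p under 0.05, against 833 of all 15037 genes.

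**Figure D3:**
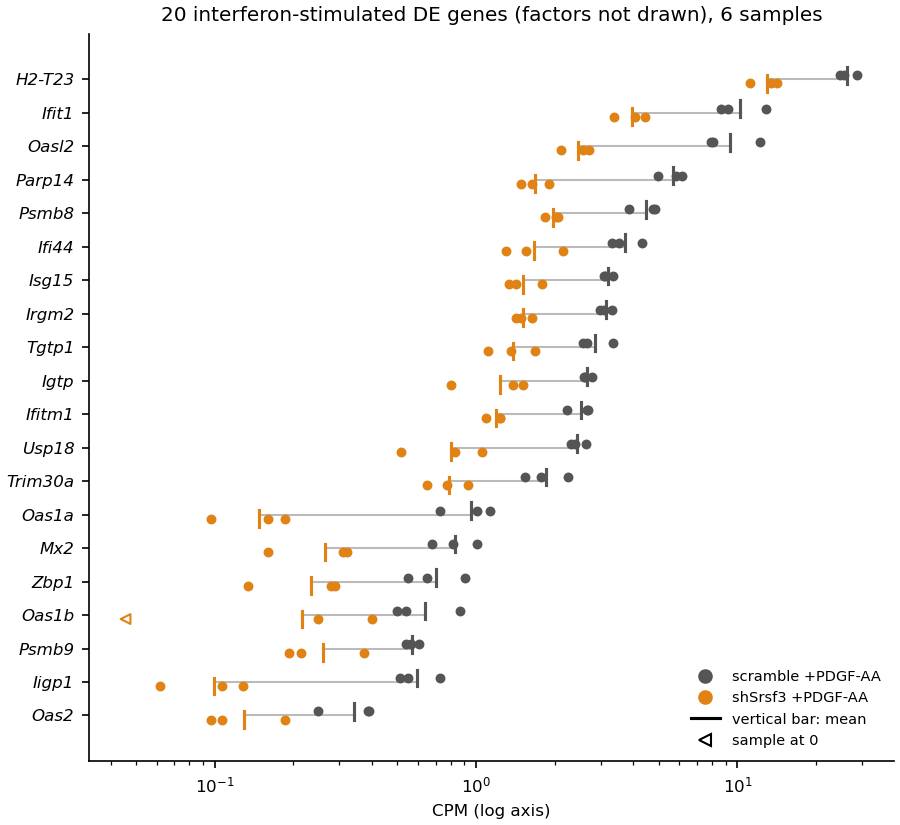
CPM (x axis, log scale) of the 20 interferon-stimulated DE genes with antiviral, GTPase, or antigen presentation roles in each of the 3 scramble +PDGF-AA samples (gray) and 3 shSrsf3 +PDGF-AA samples (orange), ordered by mean level, with a vertical bar at each mean and an open triangle for a sample at 0. All 3 shSrsf3 points lie to the left of the scramble points for each gene, as the samples did for 52.6% of all tested genes in either direction, and only *H2-T23* exceeds 20 CPM in scramble samples.

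In the Wnt pathway, secreted Wnt ligands bind Frizzled receptors with Lrp5 or Lrp6 and stabilize β-catenin, while R-spondins and their Lgr receptors protect Frizzled from the ubiquitin ligases Znrf3 and Rnf43. Of 73 tested members 15 were called lower and 2 higher, and 31 fell and 12 rose at the adjusted p alone. Among ligands, *Wnt16* (-1.24), *Wnt5b* (-1.5), and *Wnt4* (-1.62) fell on the log2 scale and *Wnt2* (2.29) rose. Among receptors, *Fzd1* (-1.01), *Fzd3* (-1.23), and *Lrp5* (-1.24) fell along with *Lgr5*, while *Lgr6* (1.92) rose from a level under 1 CPM. Of 9 secreted inhibitors 4 were called lower. *Sfrp2*, which binds Wnt proteins outside the cell, was the most highly counted of these. *Sfrp2* was at 38.7, 42.02, and 36.5 CPM in the scramble samples and 8.28, 9.66, and 6.66 CPM in the shSrsf3 samples (log2 fold change -2.25, standard error 0.0972, adjusted p = 1.14e-09). *Axin2* and *Nkd1* are feedback inhibitors whose transcription is raised by β-catenin. *Axin2* had 2.13, 2.06, and 1.53 CPM in the scramble samples and 0.428, 0.310, and 0.515 CPM in the shSrsf3 samples (log2 fold change -2.18, standard error 0.224, adjusted p = 3.89e-06). *Nkd1* was measured at 3.80, 4.94, and 4.41 CPM in the scramble samples and 1.55, 1.52, and 1.51 CPM in the shSrsf3 samples (log2 fold change -1.52, standard error 0.140, adjusted p = 1.42e-06). *Lrp5* was at 133, 138, and 130.3 CPM in the scramble samples and 57.3, 56.8, and 55.7 CPM in the shSrsf3 samples (log2 fold change -1.24, standard error 0.0406, adjusted p = 8.10e-11). The R-spondin *Rspo2* went the other way without reaching 2-fold, from a mean of 130 to 196 CPM (log2 fold change 0.59, adjusted p = 6.81e-07).

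The IGF system comprises the ligands Igf1 and Igf2, their receptors, and binding proteins that hold the ligands in the matrix. Of 20 tested members 3 were called lower, *Igf2*, *Igfbp2*, and *Igfbp5*, and 0 were called higher by edgeR, DESeq2, or limma-voom, with 2 higher at an unadjusted p under 0.05. At the adjusted p alone 12 fell and 2 rose, and the median log2 fold change was -0.40. Both ligands, 2 of 3 receptors, 4 of 6 binding proteins, and 3 of 5 adaptors fell. *Pappa*, a protease that cleaves binding proteins, went from 100 to 70.3 CPM on average (log2 fold change -0.51, adjusted p = 6.29e-05), whereas *Igf2r* and *Grb10* had log2 fold changes of -0.06 and 0.02 that did not pass. In the retinoic acid pathway 3 of 22 members were called higher and 2 lower. The synthesis enzymes differed in direction, with *Aldh1a2* lower and *Aldh1a1* (2.32), *Dhrs9* (1.44), and *Bco1* (1.67) higher. *Bco1* was at 0.127 CPM in shSrsf3 samples and was not called by DESeq2, with no filter on low counts, or without scramble replicate 1 or shSrsf3 replicate 1. *Dhrs9* had 21.5, 20.3, and 21.4 CPM in the scramble samples and 56.7, 54.7, and 59.6 CPM in the shSrsf3 samples (log2 fold change 1.44, standard error 0.0467, adjusted p = 8.10e-11). *Cyp26b1*, which degrades retinoic acid, fell. *Cyp26b1* was measured at 47.8, 56.5, and 53.1 CPM in the scramble samples and 19.5, 19.1, and 16.5 CPM in the shSrsf3 samples (log2 fold change -1.51, standard error 0.0756, adjusted p = 4.06e-09). Of 4 receptor genes tested 2 rose and 1 fell at the adjusted p alone, and *Rarg* had a log2 fold change of 0.20.

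Of 81 tested craniofacial transcription factors 12 were called lower and 2 higher, against 2.57% and 2.85% of all genes. At the adjusted p alone 36 fell and 14 rose, against 20.7% and 20.3% of all genes, and the median log2 fold change was -0.21. Homeobox genes made up most of the DE members, with 8 of 30 called lower and 1 higher. *Sim2*, a bHLH-PAS factor that is expressed in the developing palate, was the most highly counted DE gene of the list. *Sim2* was at 63.1, 63.3, and 63.3 CPM in the scramble samples and 22.6, 22.4, and 23.5 CPM in the shSrsf3 samples (log2 fold change -1.47, standard error 0.0393, adjusted p = 1.58e-11). *Alx4* (-1.21), *Alx1* (-1.01), *Pbx3* (-1.23), *Lhx9* (-1.13), *Tfap2a* (-1.43), and *Gata3* (-1.34) were also called lower. The palate gene *Msx1* had 1.26, 1.79, and 1.61 CPM in the scramble samples and 0.775, 0.836, and 0.547 CPM in the shSrsf3 samples (log2 fold change -1.10, standard error 0.211, adjusted p = 8.78e-04). *Shox2*, which is expressed in the anterior palate, and *Foxp2*, a forkhead factor, were the 2 called higher. *Shox2* was at 2.99, 3.10, and 3.22 CPM in the scramble samples and 13.2, 13.1, and 11.97 CPM in the shSrsf3 samples (log2 fold change 2.04, standard error 0.0881, adjusted p = 1.14e-09). *Foxp2* had 1.45, 1.75, and 1.68 CPM in the scramble samples and 4.73, 5.45, and 5.02 CPM in the shSrsf3 samples (log2 fold change 1.64, standard error 0.120, adjusted p = 1.64e-07). The palate regulator *Osr2* had log2 fold change -0.43 and did not pass (adjusted p = 0.106). Of 39 Hox genes only 1 had enough counts to be tested.

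Among 33 osteoblast and cartilage genes 3 were called higher and 0 lower by edgeR, DESeq2, or limma-voom, although 13 were lower at an unadjusted p under 0.05. The 3 were *Sp7*, the osteoblast factor osterix (1.34), *Dmp1*, a bone matrix phosphoprotein (3.77), and *Hapln1*, a link protein of cartilage (2.49), all at 1.8 CPM or less on average. *Dmp1* was measured at 0.216, 0.124, and 0.0464 CPM in the scramble samples and 1.31, 1.52, and 2.51 CPM in the shSrsf3 samples (log2 fold change 3.77, standard error 0.421, adjusted p = 8.76e-06). At the adjusted p alone, 6 of 10 transcription factors of this list fell and 1 rose.

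Collagens differed by class. Of 10 fibrillar collagens, the main fibers of connective tissue, 7 fell and 1 rose at the adjusted p alone, with a median log2 fold change of -0.36, and 0 were DE by edgeR, DESeq2, or limma-voom, with 8 lower and 1 higher at an unadjusted p under 0.05. *Col1a1* was at 17929, 18174, and 17728 CPM in the scramble samples and 17730.0, 17799, and 16473 CPM in the shSrsf3 samples (log2 fold change -0.05, standard error 0.0356, adjusted p = 0.292). The lines thus overlapped for *Col1a1*, while *Col5a1* (-0.59), *Col5a2* (-0.33), and *Col1a2* (-0.40) fell. Of 6 basement membrane collagens, *Col4a5* and *Col4a6*, which lie next to each other on the X chromosome, were called higher and the others did not reach 2-fold. The 3 transmembrane collagens tested all fell, *Col23a1* (-1.41) and *Col25a1* (-4.33) by over 2-fold. *Col14a1*, a fibril-associated collagen, had 46.1, 46.3, and 44.5 CPM in the scramble samples and 22.9, 21.7, and 17.9 CPM in the shSrsf3 samples (log2 fold change -1.13, standard error 0.0754, adjusted p = 6.39e-08). *Col8a1* was below the fold minimum but highly counted, with 1479, 1463, and 1453 CPM in the scramble samples and 865, 859, and 828 CPM in the shSrsf3 samples (log2 fold change -0.78, standard error 0.0278, adjusted p = 2.07e-10).

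Integrins, laminins, and matrix glycoproteins had 8 members called higher and 4 lower of 79. Besides *Itga8* and *Emilin2*, *Dcn* rose, which encodes decorin, a proteoglycan that binds collagen fibrils. *Dcn* was at 18.4, 21.9, and 19.5 CPM in the scramble samples and 75.9, 80.5, and 61.7 CPM in the shSrsf3 samples (log2 fold change 1.87, standard error 0.0866, adjusted p = 2.11e-09). *Tnxb* (tenascin X, 2.12), *Itgb7* (1.91), *Spon2* (1.35), and *Itga7* (1.06) were also called higher, and *Lama1* (laminin α1, -2.28), *Frem1* (-1.77), *Bcan* (-2.11), and *Thbs4* were called lower. Of 54 matrix proteases and inhibitors 4 were called higher and 5 lower. The Adamts family held 6 of these 9 genes, with *Adamts9* (1.46) and *Adamtsl5* (1.11) higher and *Adamts15* (-4.45), *Adamts16*, *Adamts17* (-1.31), and *Adamts20* (-1.12) lower. *Serpine2*, an inhibitor of thrombin and urokinase, fell. *Serpine2* had 50.8, 50.98, and 49.6 CPM in the scramble samples and 17.3, 17.6, and 16.9 CPM in the shSrsf3 samples (log2 fold change -1.55, standard error 0.0421, adjusted p = 1.69e-11). *Adamts9* was measured at 6.41, 6.08, and 6.86 CPM in the scramble samples and 19.6, 18, and 15.8 CPM in the shSrsf3 samples (log2 fold change 1.46, standard error 0.0894, adjusted p = 2.77e-08).

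Clustered protocadherins are adhesion proteins encoded in arrays on chromosome 18, where each variable exon has its own promoter. Of 20 beta genes 11 fell and 0 rose at the adjusted p alone by edgeR (13 lower and 0 higher at an unadjusted p under 0.05), with 4 called lower and a median log2 fold change of -0.49. The gamma array went the other way. Of 22 gamma genes 14 rose and 0 fell (14 higher and 1 lower at an unadjusted p under 0.05), with 1 called higher and a median of 0.50. Under the other settings tried, the beta array had between 8 and 11 genes that fell and 0 that rose, and the gamma array had between 9 and 15 that rose and at most 1 that fell. *Pcdhb9* was at 2.91, 3.17, and 3.01 CPM in the scramble samples and 1.42, 1.30, and 0.998 CPM in the shSrsf3 samples (log2 fold change -1.28, standard error 0.161, adjusted p = 2.52e-05). *Pcdhb16* had 12.6, 12.1, and 13.2 CPM in the scramble samples and 9.51, 9.23, and 7.82 CPM in the shSrsf3 samples (log2 fold change -0.51, standard error 0.0764, adjusted p = 1.25e-04). *Pcdhgb4* was measured at 7.29, 6.82, and 6.75 CPM in the scramble samples and 11.8, 10.8, and 11.6 CPM in the shSrsf3 samples (log2 fold change 0.72, standard error 0.0699, adjusted p = 2.40e-06). The 2 beta genes were lower in all shSrsf3 samples, and *Pcdhgb4* was higher. Gamma transcripts end in shared constant exons, and 34.5% to 67.8% of the 31-base sequences of a gamma gene also occur in another gene, against 5.19% to 22.5% for beta genes, so that reads of gamma genes could be split between them. Without ligand, 13 beta genes fell, 10 gamma genes rose, and 1 gamma gene fell.

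Other cadherins had 4 members called higher and 4 lower of 29. *Cdh1*, E-cadherin of epithelia, and *Cdh10* fell, and *Cdh18* and *Pcdh9* rose. *Cdh1* was at 1.84, 2.85, and 1.81 CPM in the scramble samples and 0.454, 0.558, and 0.676 CPM in the shSrsf3 samples (log2 fold change -1.95, standard error 0.235, adjusted p = 1.80e-05). *Pcdh9* had 25, 26.9, and 26.8 CPM in the scramble samples and 56.6, 55.6, and 52.9 CPM in the shSrsf3 samples (log2 fold change 1.07, standard error 0.0419, adjusted p = 4.78e-10). *Cdh5*, VE-cadherin, rose from an average of 0.206 to 1.48 CPM, while *Tek*, a receptor of endothelium, fell from 32.4 to 18.03 CPM. Guidance cues and receptors had 3 members called higher and 8 lower of 69, and 35 fell and 19 rose at the adjusted p alone. *Sema5a*, a transmembrane semaphorin, fell with the receptors *Nrp2* and *Plxnc1*. *Sema5a* was measured at 70.9, 78.97, and 70.2 CPM in the scramble samples and 14.1, 12.5, and 10.9 CPM in the shSrsf3 samples (log2 fold change -2.55, standard error 0.0762, adjusted p = 4.22e-11). *Tenm4*, a teneurin, and *Robo2*, a Slit receptor, had log2 fold changes of -1.32 and -1.23. Of 8 ephrins 6 fell at the adjusted p alone and *Efnb3* rose, and all 4 Slit and Robo genes tested fell. *Efnb2* was at 196, 202, and 207 CPM in the scramble samples and 165, 157, and 147 CPM in the shSrsf3 samples (log2 fold change -0.37, standard error 0.0547, adjusted p = 1.19e-04). *Sema3e* (1.16) and *Epha1* (1.06) were called higher.

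Of 100 ion channel genes 11 were called higher and 9 lower. *Piezo2* was described above, while *Piezo1*, the other channel of this family, had a log2 fold change of 0.21 (adjusted p = 0.0017). Potassium channels were split, with 4 of 31 higher and 5 lower. *Kcnk15* (-2.15) and *Kcnk1* (-3.41), both potassium channels of the tandem pore family, and the calcium-activated chloride channel *Ano1* (-1.56) fell, and *Kcnn4* (1.06), *Trpv2* (1.06), and the calcium channel subunit *Cacna1a* (1.15) rose. *Scn9a*, a voltage-gated sodium channel of sensory neurons, went from 0.0597 to 1.35 CPM on average (log2 fold change 4.42). Ligand-gated channels had 3 of 18 called higher, *P2rx3* (1.06), *P2rx5* (1.13), and *Chrnb2* (1.03). *Cacna1a* had 21.7, 25.2, and 22.1 CPM in the scramble samples and 47.03, 53.1, and 52.8 CPM in the shSrsf3 samples (log2 fold change 1.15, standard error 0.0700, adjusted p = 2.77e-08). Of 231 Slc carriers 5 were called higher and 4 lower, a share of DE genes below the 5.42% of all genes. *Slc7a2* (-1.21), which carries arginine and lysine, and *Slc24a3* (1.16), a sodium, calcium, and potassium exchanger, were the most highly counted. Of 32 Abc transporters 5 were called higher. Among them were *Abcb1b* and *Abcb1a*, the P-glycoprotein genes that pump drugs out of cells. *Abcb1b* was measured at 11.5, 9.66, and 11.1 CPM in the scramble samples and 25.9, 23.8, and 28.7 CPM in the shSrsf3 samples (log2 fold change 1.28, standard error 0.0760, adjusted p = 2.19e-08). *Abcb1a* was at 0.365, 0.301, and 0.247 CPM in the scramble samples and 2.38, 2.51, and 2.74 CPM in the shSrsf3 samples (log2 fold change 3.05, standard error 0.198, adjusted p = 4.88e-08). *Atp2b4*, a calcium pump of the plasma membrane, fell. *Atp2b4* had 128, 130.3, and 131 CPM in the scramble samples and 48.98, 49.99, and 47.96 CPM in the shSrsf3 samples (log2 fold change -1.41, standard error 0.0426, adjusted p = 4.49e-11).

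Of 101 G protein-coupled receptor and prostaglandin genes 6 were called higher and 8 lower. *Bdkrb2*, the bradykinin B2 receptor, and *P2ry14*, a receptor for UDP-glucose, rose. *Bdkrb2* was measured at 2.81, 3.33, and 3.46 CPM in the scramble samples and 11.1, 13.3, and 16.2 CPM in the shSrsf3 samples (log2 fold change 2.07, standard error 0.154, adjusted p = 1.86e-07). *P2ry14* was at 3.57, 3.72, and 3.54 CPM in the scramble samples and 12.8, 11.9, and 13.97 CPM in the shSrsf3 samples (log2 fold change 1.84, standard error 0.0895, adjusted p = 3.25e-09). The angiotensin receptors *Agtr2* (1.46) and *Agtr1a* (2.00) and the sphingosine phosphate receptor *S1pr3* (1.08) also rose, and the endothelin receptors *Ednra* (-1.21) and *Ednrb* (-1.32) and the adhesion receptor *Adgrg6* (-1.04) fell. *Ptgs1*, the constitutive cyclooxygenase, rose without reaching 2-fold (0.64), and *Ptgs2*, the inducible one, had 0.07 (adjusted p = 0.537). Cytokines and chemokines had 2 members called higher and 3 lower of 58, against 2.85% and 2.57% of all genes. *Tnfsf18* had 13.3, 11.8, and 12.3 CPM in the scramble samples and 26.99, 26.7, and 27.3 CPM in the shSrsf3 samples (log2 fold change 1.11, standard error 0.0584, adjusted p = 6.46e-09). *Lifr*, the LIF receptor, fell (-1.03).

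In the growth factor families, 3 members were called higher and 4 lower of 50. *Fgf10*, a mesenchymal ligand that signals to the palatal epithelium, rose. *Fgf10* was measured at 2.49, 2.69, and 2.57 CPM in the scramble samples and 10.3, 9.97, and 8.46 CPM in the shSrsf3 samples (log2 fold change 1.89, standard error 0.119, adjusted p = 3.75e-08). *Gdnf*, a neurotrophic ligand, and *Areg*, an EGF receptor ligand, had log2 fold changes of 1.42 and 1.04, and *Flt4*, a VEGF receptor, and *Ntf3* had -1.37 and -1.91. Of 7 PDGF ligand and receptor genes 4 fell at the adjusted p alone. *Pdgfra* was at 60.4, 59.01, and 60.3 CPM in the scramble samples and 47.8, 47.6, and 44.3 CPM in the shSrsf3 samples (log2 fold change -0.36, standard error 0.0570, adjusted p = 1.85e-04). *Pdgfb* (-1.14) and *Pdgfc* (-0.55) fell as well, whereas *Pdgfa* (-0.01, adjusted p = 0.909) and *Pdgfrb* (-0.06, adjusted p = 0.423) did not pass. In the TGF-beta and BMP pathway 5 members were called lower and 1 higher of 57, with *Bmp6* (-1.10), *Gdf10* (-2.19), *Inhbb* (-1.30), the activin receptor *Acvr2b* (-1.05), and the BMP antagonist *Nog* (-1.10) lower and the antagonist *Chrdl1* (1.01) higher. Of 12 receptors in this pathway 7 fell and 3 rose at the adjusted p alone. Among Hedgehog and Notch genes, *Hhip*, a Hedgehog-binding inhibitor, and *Rfng*, a glycosyltransferase that modifies Notch, were called higher along with *Notch4* (1.42). *Hhip* had 0.465, 0.727, and 0.788 CPM in the scramble samples and 1.68, 2.73, and 2.25 CPM in the shSrsf3 samples (log2 fold change 1.74, standard error 0.252, adjusted p = 9.08e-05). *Rfng* was measured at 6.98, 8.19, and 8.32 CPM in the scramble samples and 22.02, 23.4, and 23.04 CPM in the shSrsf3 samples (log2 fold change 1.54, standard error 0.0637, adjusted p = 7.47e-10). The Notch target *Hey1* (-3.32) and the ligand *Dll1* (-1.53) were called lower at levels under 1 CPM.

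Immediate early genes are transcribed within minutes of receptor activation, and Dusp, Spry, and Spred proteins then dampen ERK signaling. Of the 48 members 0 were DE by edgeR, DESeq2, or limma-voom, although 22 rose and 6 fell at the adjusted p alone, and 23 were higher and 7 lower at an unadjusted p under 0.05. The median log2 fold change was 0.21. *Nr4a1*, an orphan nuclear receptor, and *Fosb*, an AP-1 subunit, were closest to the fold minimum. *Nr4a1* was at 292, 405, and 344 CPM in the scramble samples and 664, 672, and 644 CPM in the shSrsf3 samples (log2 fold change 0.93, standard error 0.152, adjusted p = 2.51e-04). *Fosb* had 10.4, 11.6, and 10.7 CPM in the scramble samples and 21.1, 21.9, and 20.6 CPM in the shSrsf3 samples (log2 fold change 0.96, standard error 0.130, adjusted p = 4.90e-05). Without scramble replicate 2, these 2 members, *Nr4a1* and *Fosb*, were called higher, and a test against a 1.5-fold change called 3, *Fosb*, *Dusp5*, and *Dusp6*. The ERK phosphatases *Dusp5* (0.79), *Dusp6* (0.78), and *Dusp4* (0.54) rose, and *Egr1* rose (0.50) while *Egr3* fell (-0.86). *Egr3* was measured at 59.4, 76.4, and 62.96 CPM in the scramble samples and 36.7, 39.2, and 33.8 CPM in the shSrsf3 samples (log2 fold change -0.86, standard error 0.117, adjusted p = 5.41e-05). *Myc* (-0.41) and *Klf10* (-0.50) also fell. Without ligand the median of the list was 0.37 and 4 members were DE. The interaction passed for 0 of 48 by edgeR, with 0.162 as the smallest adjusted p. At an unadjusted p under 0.05 there were 17 of the 48, a larger share than the 833 of all 15037 genes. Of 62 PI3K, Akt, and endosome genes 1 was DE, *Inpp4b*, a phosphoinositide phosphatase at 0.186 CPM on average, which was not called by DESeq2, with no filter on low counts, or without shSrsf3 replicate 1. The 27 early endosome genes had a median log2 fold change of -0.01. *Rab7* had -0.02 (adjusted p = 0.788) and *Becn1*, of the class III PI3K complex, had -0.17 (adjusted p = 0.00229).

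Of 23 tested replication and mitosis genes 14 rose and 0 fell at the adjusted p alone by edgeR (15 higher and 0 lower at an unadjusted p under 0.05), with a median log2 fold change of 0.39, and between 13 and 15 rose under the other settings. *Ccnb2*, a mitotic cyclin, was the 1 cell cycle gene called higher, and *Cdkn1c*, the cyclin-dependent kinase inhibitor p57, was the 1 called lower. *Ccnb2* was at 18.9, 16.7, and 19.2 CPM in the scramble samples and 36.5, 37.4, and 41.2 CPM in the shSrsf3 samples (log2 fold change 1.07, standard error 0.0762, adjusted p = 1.23e-07). *Cdkn1c* had 14.6, 15.3, and 13.9 CPM in the scramble samples and 6.17, 6.66, and 6.15 CPM in the shSrsf3 samples (log2 fold change -1.21, standard error 0.0670, adjusted p = 1.15e-08). Of 17 tested genes in the p53 target group, 6 fell and 2 rose at the adjusted p alone, with a median log2 fold change of 0.004. Among these *Ccng1* fell without reaching 2-fold (-0.84). All 8 Nrf2 target genes tested rose, with a median of 0.55, and they rose under each other setting. *Nqo1*, which reduces quinones, was the 1 called DE. *Nqo1* was measured at 10.1, 9.30, and 9.92 CPM in the scramble samples and 32.6, 30.97, and 34.1 CPM in the shSrsf3 samples (log2 fold change 1.73, standard error 0.0670, adjusted p = 4.24e-10). *Gsta4* (0.97), *Gstm1* (0.62), and *Hmox1* (0.56) followed. Of 16 hypoxia and glycolysis genes 8 fell and 0 rose at the adjusted p alone by edgeR, and the same numbers held at an unadjusted p under 0.05. The 3 called lower were *Bnip3* (-1.49), *Ndrg1* (-1.07), and *Egln3* (-1.02), while glycolytic enzymes such as *Gapdh* (-0.03) and *Ldha* (-0.03) did not pass. *Ndrg1* was at 143, 149.9, and 143 CPM in the scramble samples and 65.5, 68.1, and 74.99 CPM in the shSrsf3 samples (log2 fold change -1.07, standard error 0.0499, adjusted p = 2.28e-09). Cholesterol synthesis genes had a median of 0.02, with 5 of 21 higher and 2 lower at the adjusted p alone, against 20.3% and 20.7% of all genes. Among 79 ribosomal protein genes 25 fell and 2 rose at the adjusted p alone with a median of -0.10, and 0 were DE by edgeR, DESeq2, or limma-voom (33 lower and 3 higher at an unadjusted p under 0.05), but the number that fell varied from 13 to 39 across settings. In actin, smooth muscle, and YAP target genes *Sorbs2*, an adaptor of stress fibers, rose. *Sorbs2* had 35.99, 37.2, and 38.5 CPM in the scramble samples and 145, 144, and 161 CPM in the shSrsf3 samples (log2 fold change 2.01, standard error 0.0495, adjusted p = 9.95e-12). The YAP target *Ccn2* had a log2 fold change of 0.08 (adjusted p = 0.484).

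**Figure D4:**
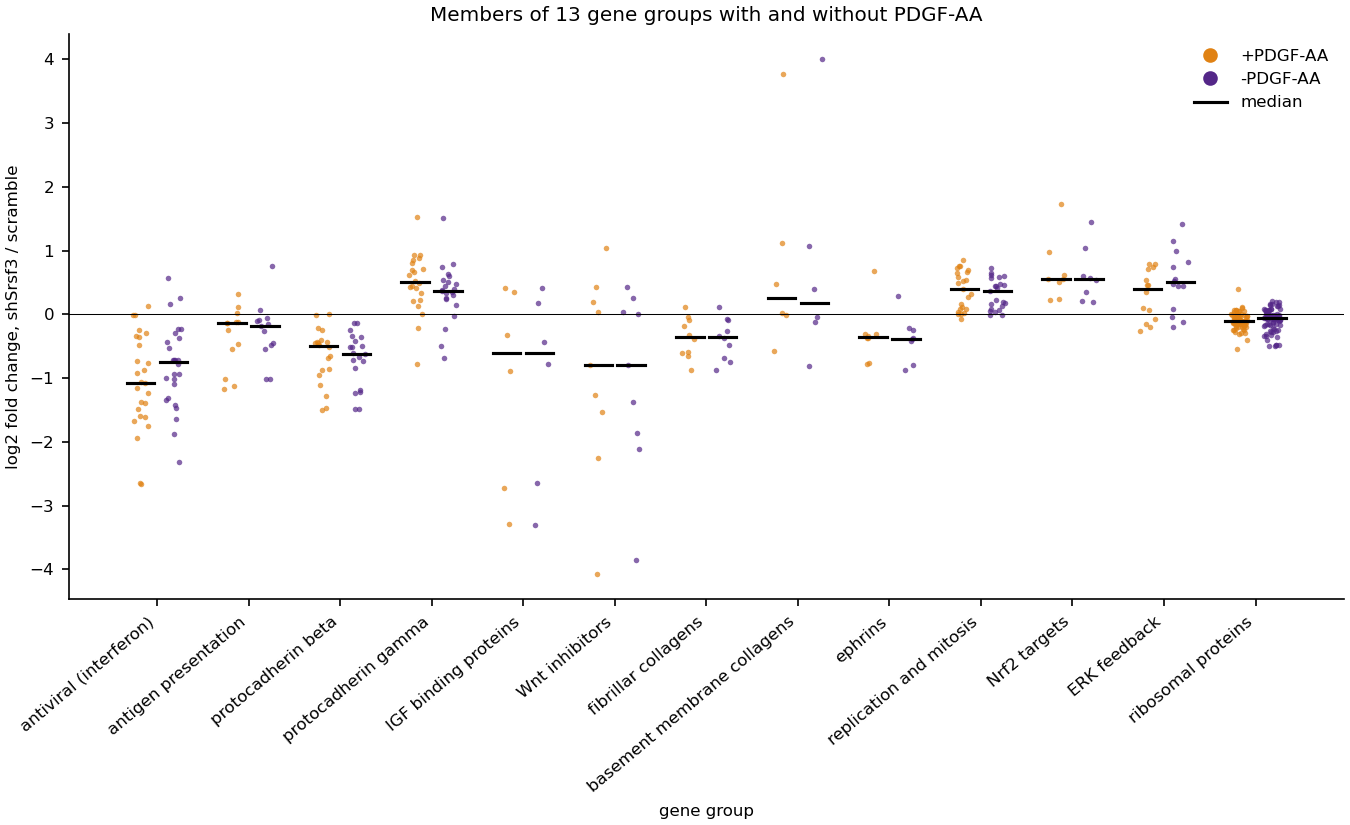
Log2 fold change between shSrsf3 and scramble cells (y axis) of each tested member of 13 gene groups (x axis), with ligand in orange and without ligand in purple, and a black bar at each median. The medians of antiviral and protocadherin beta genes lie below 0 and those of protocadherin gamma, mitosis, and Nrf2 target genes above 0 in both conditions.

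The effect of the shRNA with ligand was set beside that without ligand, which used the other 6 samples of the same lines. Without ligand 864 genes (5.75%) were DE. Of the 815 genes DE with ligand, 797 had the same sign without it, and 695 also passed at the adjusted p with that sign. The interaction passed for 2 genes by edgeR's test, *Ch25h* and *Gm6741*, with 833 at an unadjusted p under 0.05, so that a gene called DE in 1 condition alone was not shown to depend on the ligand. *Ch25h* encodes cholesterol 25-hydroxylase. *Ch25h* was measured at 28.6, 28.7, and 29.6 CPM in the scramble samples and 22.1, 22.5, and 20.1 CPM in the shSrsf3 samples (log2 fold change -0.42, standard error 0.0523, adjusted p = 2.21e-05). Without ligand its log2 fold change was 0.44. Several leading genes had close values in both conditions, for example a log2 fold change of -5.11 with and -5.27 without ligand for *Lgr5*, -3.29 and -3.31 for *Igfbp2*, 3.77 and 4.00 for *Col4a6*, and -0.43 and -0.34 for *Srsf3*. Other leading genes differed more, such as *Cpxm2* (-3.15 with and -2.48 without ligand) and *Plxnc1* (-2.77 and -2.30).

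Genes of chromosome Y were examined after their values had been seen. Of 8 tested, 4 were called lower, *Ddx3y*, *Eif2s3y*, *Kdm5d*, and *Uty*, against 2.57% of all genes. The sources used here do not say whether the lines differ in chromosome Y content. *Ddx3y* was at 19.2, 21.1, and 21.4 CPM in the scramble samples and 6.71, 6.78, and 7.85 CPM in the shSrsf3 samples (log2 fold change -1.53, standard error 0.0659, adjusted p = 1.12e-09). *Eif2s3y* had 10.2, 10.7, and 10.1 CPM in the scramble samples and 3.69, 3.56, and 3.22 CPM in the shSrsf3 samples (log2 fold change -1.56, standard error 0.0987, adjusted p = 3.81e-08). *Kdm5d* was measured at 6.11, 5.48, and 6.23 CPM in the scramble samples and 1.98, 2.51, and 2.03 CPM in the shSrsf3 samples (log2 fold change -1.45, standard error 0.106, adjusted p = 1.48e-07). These encode an RNA helicase, a translation initiation factor subunit, and a histone demethylase that have X-linked partners. The 4 log2 fold changes were between -1.56 and -1.43, and the X chromosome had a median of 0.00 over 478 genes. The other 4 genes tested did not reach both thresholds, and 3 of them share 91.5% to 97.5% of their 31-base sequences with other genes.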

How the data were processed

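RNA from 12 iMEPM samples, 3 for each combination of shRNA and ligand, had been sequenced as stranded poly(A) libraries. The authors trimmed reads with BBDuk, quantified transcripts with Salmon 1.4.0 against GENCODE M26 (GRCm39), and summed them per gene symbol with tximport, so that the deposited values are expected counts that are not scaled to library size. The tximport scaling setting is not given in the sources used here. Of these values 16.3% were not whole and were rounded. No column was left out. Genes were filtered with filterByExpr (minimum count 10), libraries were scaled by TMM, and edgeR 4.0.16 fitted 1 quasi-likelihood model to all 12 samples (R 4.3.3) with Benjamini-Hochberg adjustment over 15037 genes. DE genes changed at least 2-fold with an adjusted p no higher than 0.05. The fit was run on counts simulated from means and dispersions estimated in these data, which cannot show whether the model itself suits them. Estimated counts give no exact counting error, and the lower depth of the shSrsf3 samples limits precision for genes with few counts.

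Gene positions and the share of 31-base sequences in common with other genes came from GENCODE M39 (GRCm39), in which 50157 of the 51490 symbols were found by name. Of the 51490 symbols 178 are Ensembl IDs, and no gene was looked up by its ID. Promoter letters came from RefSeq on GRCm38.p6.

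The members and gene lists were chosen with earlier results of these data known. Genes named were *Srsf3*, the 12 DE genes with the largest change in each direction (mean count of at least 50, no overlap between lines, protein-coding, at most 20% shared sequence), up to 4 DE genes per list under the same conditions or the member with the highest CPM of a role without a DE gene, the 8 DE genes with the highest CPM, markers, and up to 5 genes past the interaction test. Others were chosen after their values were seen, and some genes of the lists are not reported here. Alternatives were DESeq2 1.42.0, limma-voom (limma 3.58.1), other filters, scaling, fold minimums, depth, sample sets, and a replicate block.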

Additional observations from a re-analysis of the deposited data

Results flagged for a closer look

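The effect of the shRNA differed with and without ligand for 2 genes by the interaction term of edgeR's quasi-likelihood test. For *Ch25h*, which makes 25-hydroxycholesterol, the log2 fold change between shSrsf3 and scramble cells was -0.42 with ligand and 0.44 without it, a difference of -0.87 (adjusted p = 0.000327). *Gm6741*, a processed pseudogene all of whose 31-base sequences (100%) also occur in another gene, differed by 8.41 on the log2 scale (adjusted p = 0.0187), with 0 counts in all 3 scramble +PDGF-AA samples. That fitted value depends on the prior count and is no bound. Against a floor of 3 counts per library, *Gm6741* was at least 18.6-fold higher in shSrsf3 cells with ligand. Groups of 3 samples were not tested for outlying samples.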

How the results depend on the processing

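The number of DE genes with ligand was 815, with 732 to 991 under alternatives in scaling, filter removal, test, sample set, equal depth, and a test against a 1.5-fold change. A minimum count of 50 gave 484 (243 higher and 241 lower), and no fold minimum gave 6169 (3050 higher and 3119 lower). Without ligand the numbers were 491 and 6899 against 864. Leaving out 1 sample at a time gave 788 to 804 DE genes with ligand, of which 406 to 434 were higher and 354 to 393 lower, and between 688 and 721 were among the 815. The interaction passed for 2 genes, for 218 with no filter on low counts, for 26 with DESeq2, and for 1 to 6 with 1 sample left out (1 without any single scramble +PDGF-AA replicate or without shSrsf3 +PDGF-AA replicate 1, and 6 without shSrsf3 +PDGF-AA replicate 3). The cause of these differences was not tested. *Srsf3* kept its direction and passed under each alternative, with log2 fold changes of -0.45 to -0.40 when 1 sample was left out. Of 2352 recomputed values for named genes 2314 stayed on the same side of the adjusted p threshold, 31 no longer passed, and 7 newly passed. The sign was compared only for genes that passed in the main fit, and 0 of their values changed sign. The 2-fold minimum was not part of this count.

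The replicate numbers showed no detectable pairing with ligand. Deviations of samples with the same number correlated at 0.08, 0.01, and -0.07, and those of samples with different numbers between -0.09 and 0.07. These values cannot show whether samples with the same number were handled together. With the replicate number as a block, 796 genes were DE with ligand (417 higher and 379 lower), and the interaction passed for 5.

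Depth was 30958966 to 65707963 counts per +PDGF-AA sample and lower in each shSrsf3 sample, and with all libraries thinned to the smallest total 667 of the 815 genes were still DE.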
